A study of Mus musculus with 6 samples.

Results

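The genes described here were the AP-1 and Egr immediate early genes, chosen by name: *Fos*, *Fosb*, *Fosl1*, *Fosl2*, *Jun*, *Junb*, *Jund*, *Egr1*, *Egr2* and *Atf3*. Of these 10 genes, 9 were found by symbol among the 27506 genes of the count table, and all 9 passed the filter on low counts and were among the 19330 genes tested. *Fosl1* was not analyzed here. RNA-seq libraries came from dental pulp of the mandibular first molar of C57BL/6 mice at P3.5 (3.5 days after birth). The 3 control libraries were from *Ror2 fl/fl* mice, which carry the floxed *Ror2* allele without Cre, and the 3 mutant libraries were from *Osr2-Cre;Ror2 fl/fl* mice. *Osr2-Cre* is active in the dental mesenchyme and not in the dental epithelium, so *Ror2*, which encodes a Wnt5a receptor of the non-canonical Wnt pathway, was not targeted in epithelial cells. A group carrying Cre without the floxed allele was not analyzed here, and nothing in the labels says whether a library held 1 mouse or several, so p-values measure the spread between libraries, which may be partly technical.

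Immediate early genes are transcribed within minutes of a stimulus, before any new protein is made. Growth factor signals reach them through the MAP kinases and serum response factor at CArG boxes, and cAMP and stress signals reach them through CREB and ATF factors at the CRE. Fos, Jun and ATF proteins pair through leucine zippers to form AP-1, Egr proteins bind GC-rich sites through zinc fingers, and non-canonical Wnt signals are known to reach AP-1 through JNK, the kinase of c-Jun. The same genes are also induced by handling and dissociation of tissue, so their transcripts vary readily between dissections.

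Promoters are shown for *Fos*, which had the largest fitted difference, and for *Junb* and *Egr2*, the members whose groups did not overlap. Each stretch is the 250 bases before a RefSeq start site on GRCm38.p6 (mm10), written 5′ to 3′ on the strand of the gene, with motif matches in capitals. *Fos* lies at chr12:85473640-85473889 on the plus strand, *Junb* at chr8:84978749-84978998 on the minus strand, and *Egr2* at chr10:67537619-67537868 on the plus strand, upstream of the third of its 5 listed starts.
Fos: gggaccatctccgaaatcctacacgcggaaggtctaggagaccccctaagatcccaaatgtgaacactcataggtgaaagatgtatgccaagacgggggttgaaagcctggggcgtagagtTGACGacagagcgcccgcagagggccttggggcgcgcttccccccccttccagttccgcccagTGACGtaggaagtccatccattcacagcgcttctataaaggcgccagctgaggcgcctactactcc
Junb: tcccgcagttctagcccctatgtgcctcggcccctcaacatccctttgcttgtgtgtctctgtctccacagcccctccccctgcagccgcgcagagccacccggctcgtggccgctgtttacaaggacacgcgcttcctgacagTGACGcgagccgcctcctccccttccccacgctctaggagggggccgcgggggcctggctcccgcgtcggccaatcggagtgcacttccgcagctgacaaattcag
Egr2: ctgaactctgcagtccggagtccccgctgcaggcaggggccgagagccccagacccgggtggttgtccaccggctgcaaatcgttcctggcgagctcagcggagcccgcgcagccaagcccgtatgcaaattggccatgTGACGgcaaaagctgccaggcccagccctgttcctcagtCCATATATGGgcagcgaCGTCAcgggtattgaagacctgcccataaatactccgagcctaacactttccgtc
The capitals mark TGACG, the core of the CRE, read on either strand, at −129 to −125 and −66 to −62 of *Fos*, at −106 to −102 of *Junb*, and at −111 to −107 and −55 to −51 of *Egr2*. In *Egr2*, they also mark a CArG box at −72 to −63. In windows of 250 bases before to 50 bases after the start, TGACG was found in 20.8% of 32851 promoters and the CArG box in 1.63%. The AP-1 site TGANTCA was found in 7.81%, the EGR site GCGNGGGCG in 5.55% and the full CRE TGACGTCA in 1.79% of promoters, all searched on both strands, and every full CRE also holds TGACG. Among the other members with a listed promoter, TGACG was found in *Fosb* and *Atf3* and the EGR site in *Fosb* and *Fosl2*, whereas no listed motif was found in the *Jun* and *Jund* windows. The RefSeq starts used for *Fosb*, *Fosl2*, *Junb*, *Jund*, *Egr2* and *Atf3* differ from the GENCODE gene starts. The *Jund* stretch ends at 70697738, before the annotated gene start at 70698949. The printed *Egr2* stretch ends at 67537868, beyond the annotated gene start at 67535475. No listed motif was found in the window of the first *Egr2* start, and that of the second held the CArG box alone. A match describes letters only, not binding. Bases more than 250 upstream of a start were not searched, so a motif not found here may lie farther out.

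The libraries held 56134770 to 62628940 estimated counts, and levels are given as CPM, the counts of a gene divided by the library size as scaled with edgeR's TMM method. The floxed gene *Ror2* stood at 38.2, 36.2 and 36.7 CPM in controls and at 27.9, 28.1 and 26.3 CPM in mutants. It was lower in every mutant library (log2 fold change −0.43, SE 0.08, adjusted p = 0.013), with *Ror2* transcripts left in the whole pulp. The enamel genes *Amelx*, *Ambn* and *Enam*, which mark ameloblasts, took 17.3% to 18.9% of control counts and 18.6% to 23.7% of mutant counts, so transcripts of dental epithelium were abundant in tissue labelled dental pulp. These genes did not move together, with log2 fold changes of 0.56 for *Amelx*, −0.11 for *Ambn* and −0.47 for *Enam*. Of 11 dental epithelium markers tested, 0 had an adjusted p under 0.05, and their median log2 fold change was 0.07. Odontoblast markers summed to 14900 to 46900 CPM in controls and 13400 to 36200 CPM in mutant libraries. Skeletal muscle markers summed to 11.3 to 37.4 CPM in controls and 2.66 to 3.54 CPM in mutant libraries, and all 7 tested were lower in the mutant. Of 7 erythroid markers, 2 were lower in the mutant, beside 9.84% of all genes tested. *Myog*, which marks myoblasts, did not pass the filter on low counts. The part of muscle, blood and epithelium in the values below was not tested. In bulk tissue, fewer cells expressing a gene and less RNA per cell cannot be told apart.

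None of the 9 immediate early genes passed the test between control and *Osr2-Cre;Ror2 fl/fl* pulp, against 20.2% of all genes tested. By edgeR's quasi-likelihood test, 0 were called at an adjusted p under 0.05 and 0 at an unadjusted p under 0.05, a limit passed by 38.3% of all genes. At the unadjusted limit, DESeq2 passed 2 members (*Fos* and *Fosl2*), edgeR's likelihood ratio test passed 1 (*Fos*) and limma voom with sample quality weights passed 2 (*Fosl2* and *Junb*), with 0 at the adjusted limit by each. *Fos* and *Fosl2* also passed the unadjusted limit with library size alone, with either GC content offset and without mutant library 3. *Fos* passed it with the replicate block or without control library 2, and *Fosl2* without control library 1. *Jund* passed it with either GC content offset or summed with its antisense gene, and *Egr2* on the normalized table with a pseudocount of 1. By the quasi-likelihood test, fitted values were higher in the mutant for 3 members and lower for 6, with a median log2 fold change of −0.101 beside 0.007 over all genes. Only *Junb* and *Egr2* had groups that did not overlap, 2 of 9 members beside 44.7% of all genes, and both were higher in the mutant, a pattern shown by 22.6% of all genes. With 3 libraries in each group, an exact permutation test cannot give a p below 0.1.

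**Figure D1:**
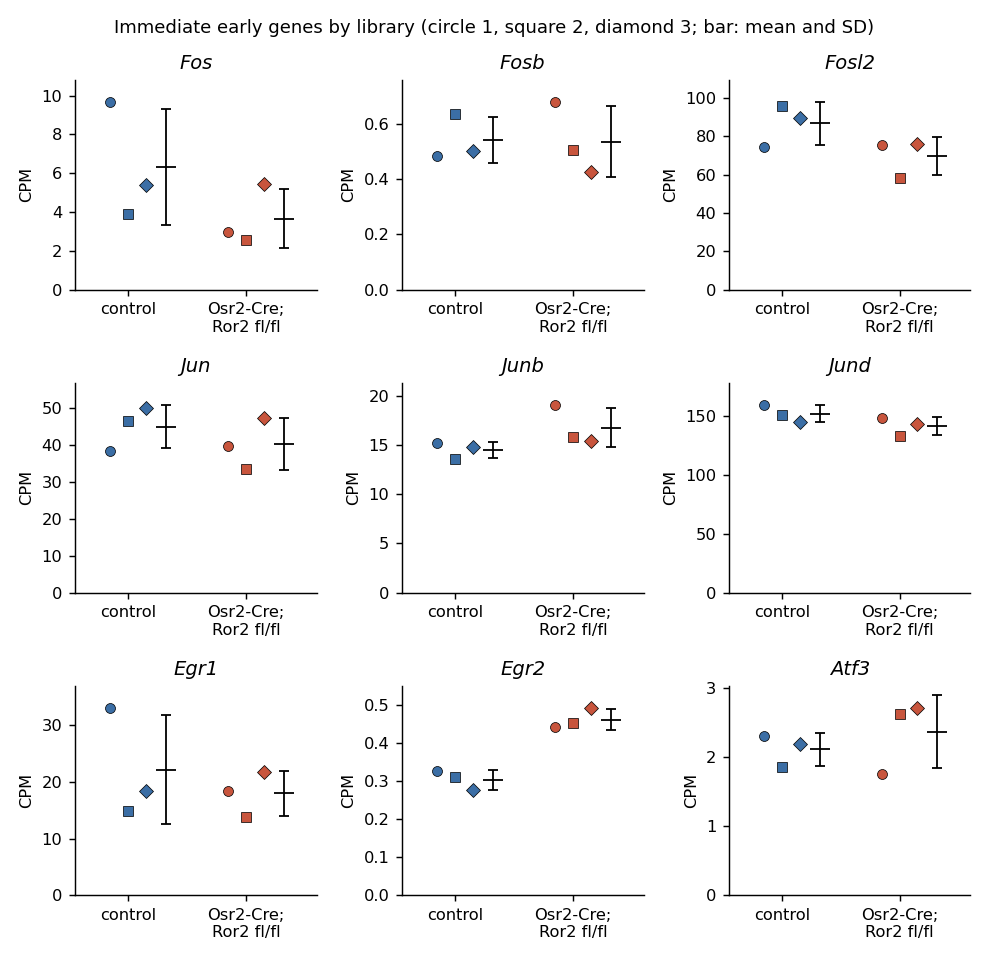
Level of each measured AP-1 and Egr gene in CPM (y axis, from 0) in the 3 control libraries (blue) and the 3 *Osr2-Cre;Ror2 fl/fl* libraries (red). Circles, squares and diamonds are libraries 1, 2 and 3, and bars give the group mean and SD. *Junb* and *Egr2* are the panels in which the groups do not overlap, and control library 1 stands highest in *Fos* (9.66 CPM) and *Egr1* (33 CPM).

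*Fos* encodes c-Fos, the AP-1 subunit that is induced most quickly and must pair with a Jun protein to bind DNA. The gene lies at chromosome 12, 85473890 to 85477273 (GENCODE M21, mm10), with 4 exons. Its level was 9.66, 3.91 and 5.41 CPM in controls and 2.98, 2.58 and 5.42 CPM in mutant libraries, from 149 to 622 counts. The groups overlapped, since mutant library 3 was level with control library 3 and above control library 2. The log2 fold change was −0.79 (SE 0.38, 95% interval −1.66 to 0.08, adjusted p = 0.16), which spans from 0.316 to 1.06 of the control level. *Fos* was therefore not shown to differ, and a level well under that of the controls was not excluded at this spread. Its control libraries had a coefficient of variation of 47.1%, and 7.84% of tested genes varied more within groups.

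Control library 1 carried the highest *Fos* level, and its label has a letter code that the other control labels do not share and that is not explained. Without it, the log2 fold change of *Fos* was −0.36 with an adjusted p of 0.49, and with each other library left out it lay between −1.19 and −0.59. Erythroid marker *Slc4a1*, the red cell anion exchanger, was also high in that library, at 11 CPM against 2.35 and 2.64 CPM in the other controls. Mutant library 2 was high in *Slc4a1* too, at 8.63 CPM beside 1.44 and 0.966 CPM in the other mutants. It had the lowest *Fos* level of all 6 libraries. Erythroid markers did not rank mutant library 2 alike. *Hba-a1* stood at 80.6 CPM there, below every control (156 to 380 CPM). All 7 erythroid markers summed to 942 CPM there, under control library 1 (1330 CPM) and above the remaining libraries (245 to 880 CPM). The part of blood or of the dissection in the *Fos* level was not tested.

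*Fosl2* encodes Fra-2, a Fos protein that lacks the strong transactivation domain of c-Fos and acts in bone cells. It was at 74.3, 95.8 and 89.7 CPM in controls and 75.2, 58.2 and 75.9 CPM in mutant libraries. Control library 1 lay among the mutant values, whereas the other 2 controls were above every mutant library. Its log2 fold change of −0.31 (SE 0.14, 95% interval −0.63 to 0.01) had an adjusted p of 0.14, the lowest among the members, and kept its sign in all 18 alternatives run. No reversal was seen for *Fos*, *Jun*, *Jund*, *Egr2* or *Atf3* either, and the alternatives reuse the same libraries. *Fosb*, whose protein is a close relative of c-Fos, was near the limit of measurement at 0.481, 0.635 and 0.502 CPM in controls and 0.677, 0.503 and 0.424 CPM in mutant libraries. With 25 to 40 counts per library, its log2 fold change of −0.01 had a 95% interval of −0.72 to 0.7, so levels from 0.606 to 1.62 of the control lie within it.

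*Jun* encodes c-Jun, the AP-1 subunit that JNK phosphorylates. It lies at chromosome 4, 95049034 to 95052222, as a single exon. Levels were 38.4, 46.3 and 49.8 CPM in controls and 39.7, 33.4 and 47.3 CPM in mutant libraries, with mutant libraries 1 and 3 inside the control range. The log2 fold change was −0.16 (SE 0.15, 95% interval −0.5 to 0.18, adjusted p = 0.46). Its exon shares 232 bases with the antisense gene *Junos*, which was at 0.257 to 0.592 CPM, and *Jun* summed with *Junos* gave −0.15.

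*Junb* encodes JunB, which can oppose c-Jun in proliferation. It was at 15.2, 13.6 and 14.8 CPM in controls and 19.1, 15.9 and 15.4 CPM in mutant libraries. Every mutant library was above every control, although mutant library 3 exceeded control library 1 by less than the SD of either group (0.834 and 2.03 CPM). The log2 fold change was 0.21 (SE 0.12, 95% interval −0.07 to 0.48, adjusted p = 0.24), with an exact two-sided permutation p of 0.1, the smallest possible. *Junb* shares 173 exonic bases with *Prdx2*, which runs on the other strand and had mean levels of 213 ± 27.2 CPM (SD, n = 3) in control and 213 ± 8.18 CPM (SD, n = 3) in mutant libraries. Whether strand was used in counting is not given in the sources used here.

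*Jund* encodes JunD, the Jun protein that is present in most resting cells and is the least inducible of the family. It was the most abundant member, at 159, 151 and 145 CPM in controls and 148, 133 and 143 CPM in mutant libraries. Mutant library 1 lay within the control range, so the groups overlapped. Its log2 fold change of −0.1 (SE 0.1, 95% interval −0.32 to 0.12, adjusted p = 0.47) had the narrowest interval among the members, from 0.799 to 1.09 of the control level.

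The antisense partner of *Jund* did differ. *Gm11175* lies on the minus strand and shares 877 of the 1668 exonic bases of *Jund* (chromosome 8, 70698949 to 70700616). It was at 16.7, 16 and 17.1 CPM in controls and 1.61, 0.78 and 2.37 CPM in mutant libraries, a log2 fold change of −3.38 (SE 0.33, adjusted p = 0.00066), and was lower in each mutant library. *Gm11175* took 9.49%, 9.58% and 10.5% of the summed *Jund* and *Gm11175* counts in control libraries, but 1.07%, 0.584% and 1.63% in mutant libraries. Reads from the shared bases cannot be told apart without strand. Summed counts were 11329, 9704 and 10025 in control and 8864, 7699 and 8599 in mutant libraries, and their log2 fold change was −0.23 (adjusted p = 0.12), further from 0 than *Jund* alone.

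*Atf3* encodes a stress-induced ATF protein that pairs with Jun proteins and often represses. It was at 2.31, 1.85 and 2.19 CPM in controls and 1.76, 2.63 and 2.71 CPM in mutant libraries. Mutant library 1 was the lowest of all 6 and mutant library 3 the highest, so the control values lay inside the mutant range. The log2 fold change was 0.16 (SE 0.22, 95% interval −0.35 to 0.67, adjusted p = 0.63).

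*Egr1* encodes a zinc finger factor that links growth factor signals to lasting changes in transcription. Its level was 33, 14.9 and 18.4 CPM in controls and 18.3, 13.8 and 21.8 CPM in mutant libraries. Control library 1 was again the highest, and the other 5 libraries were intermixed. The log2 fold change was −0.3 (SE 0.29, 95% interval −0.97 to 0.36, adjusted p = 0.47), and without control library 1 it turned to 0.1 (adjusted p = 0.77). *Egr1* had a coefficient of variation of 43.3% among controls and 22.4% among mutants.

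*Egr2*, known for its part in Schwann cell myelination and in osteoblasts, was at 0.326, 0.309 and 0.275 CPM in controls and 0.44, 0.451 and 0.491 CPM in mutant libraries. All 3 mutant libraries were above all 3 controls, with 26 to 29 counts against 17 to 21. The log2 fold change was 0.6 (SE 0.3, 95% interval −0.08 to 1.28, adjusted p = 0.17), with an exact two-sided permutation p of 0.1, so a gain of up to 2.42-fold and a small loss both lie in the interval. *S100b*, a glial calcium-binding protein, was higher in the mutant (2.31 ± 0.307 CPM in controls and 4.34 ± 0.533 CPM in mutants, SD, n = 3, log2 fold change 0.91, adjusted p = 0.015), and the part of glial cells in the *Egr2* values was not tested.

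**Figure D2:**
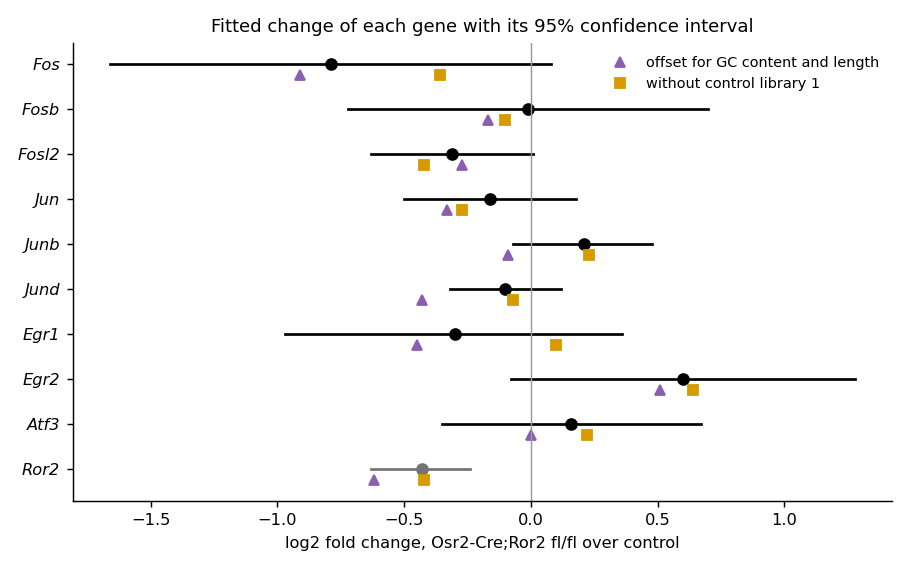
Log2 fold change of each gene, *Osr2-Cre;Ror2 fl/fl* over control (x axis), from edgeR's quasi-likelihood fit, with its 95% interval (line). Triangles give the value with an offset for GC content and length, and squares the value without control library 1. All 9 intervals of the members cross 0, that of *Ror2* does not, and *Egr1* moves from −0.3 to 0.1 without control library 1.

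The exons of all 9 members had a GC content of 51.4% or more, up to 67.15% in *Jund*. Across all genes tested, the median log2 fold change went from −0.27 in the lowest of 5 equal groups by GC content to 0.21 in the highest. *Fosb*, *Jun*, *Junb*, *Jund* and *Egr1* lay in that highest group. With an offset for GC content and length, *Jund* was called lower, at −0.43 (adjusted p = 0.044), *Junb* turned to −0.09 and *Fos* was at −0.91 (adjusted p = 0.13). Which of these scalings is nearer to the pulp was not tested.

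Ratios of counts within a library do not depend on a scaling factor shared by all genes of that library, and 5 were compared. Offsets that differ between genes, such as those for GC content and length, would change them and were not applied here. Although *Fos* and *Egr1* each varied among controls, *Fos* over *Egr1* was at 0.293, 0.262 and 0.293 in control and 0.163, 0.188 and 0.249 in mutant libraries. The control values lay close together and above each mutant value, a log2 difference of −0.52 between group means. Leaving out any single library gave −0.69 to −0.38. *Junb* over *Jund* was at 0.0958, 0.0906 and 0.102 in control and 0.129, 0.12 and 0.108 in mutant libraries, higher in each mutant library, with a log2 difference of 0.3. *Egr1* over *Egr2* was at 101, 48.3 and 67 in control and 41.5, 30.5 and 44.3 in mutant libraries, with a log2 difference of −0.85 that was −0.57 without control library 1. Each of these 3 ratios had an exact permutation p of 0.1, the smallest the design allows, and 0.17 after adjustment over the 5 ratios. *Fos* over *Fosl2* and *Fos* over *Jun* overlapped between the groups, with log2 differences of −0.45 and −0.6 and exact permutation p-values of 0.6 and 0.3 (adjusted 0.6 and 0.38). Without control library 1 these were 0.01 and −0.13.

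**Figure D3:**
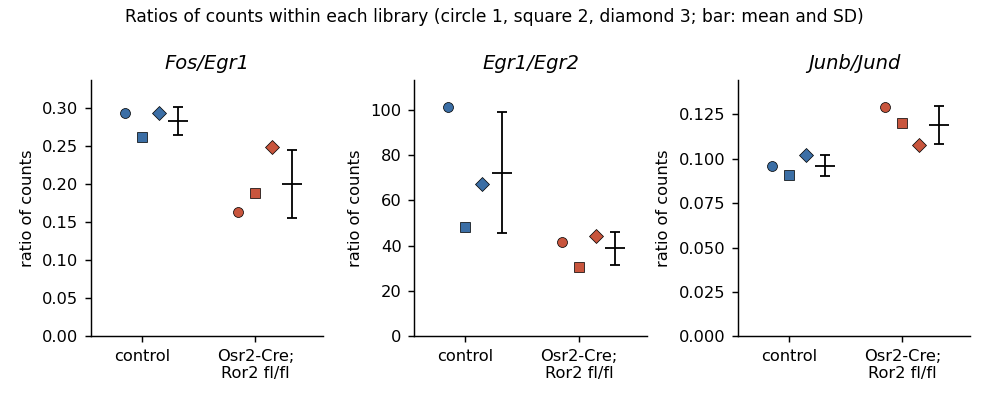
Ratio of counts within each library (y axis, from 0) for *Fos* over *Egr1*, *Egr1* over *Egr2* and *Junb* over *Jund*, with control libraries in blue, *Osr2-Cre;Ror2 fl/fl* libraries in red, and bars for the mean and SD. The groups do not overlap in any of the 3 panels, and the *Fos* over *Egr1* ratio of the controls stays between 0.262 and 0.293. *Fos* over *Fosl2* and *Fos* over *Jun*, whose groups overlap, are not drawn. *Egr1* over *Egr2* rests on 17 to 29 *Egr2* counts per library.

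Scaled by exon length (TPM), the members covered a wide range, which was compared between genes within a group only. In control pulp *Jund* was at 218 ± 11 (SD, n = 3), *Jun* at 33.8 ± 5.49, *Fosl2* at 21.4 ± 2.78, *Junb* at 15.2 ± 1.49, *Egr1* at 11.8 ± 5.11, *Fos* at 6.46 ± 3.04, *Atf3* at 2.36 ± 0.348, *Egr2* at 0.214 ± 0.0129 and *Fosb* at 0.206 ± 0.0242. Neighbors whose control libraries overlapped were *Junb* with *Egr1*, *Egr1* with *Fos*, and *Egr2* with *Fosb*. In mutant pulp the order was *Jund* (177 ± 11), *Jun* (26.4 ± 5.42), *Junb* (15.2 ± 1.25), *Fosl2* (15.1 ± 2.34), *Egr1* (8.38 ± 2.11), *Fos* (3.28 ± 1.52), *Atf3* (2.31 ± 0.594), *Egr2* (0.284 ± 0.0291) and *Fosb* (0.178 ± 0.0354). There, *Junb* overlapped with *Fosl2* and *Fos* with *Atf3*, and *Egr2* was above *Fosb* in each library.

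**Figure D4:**
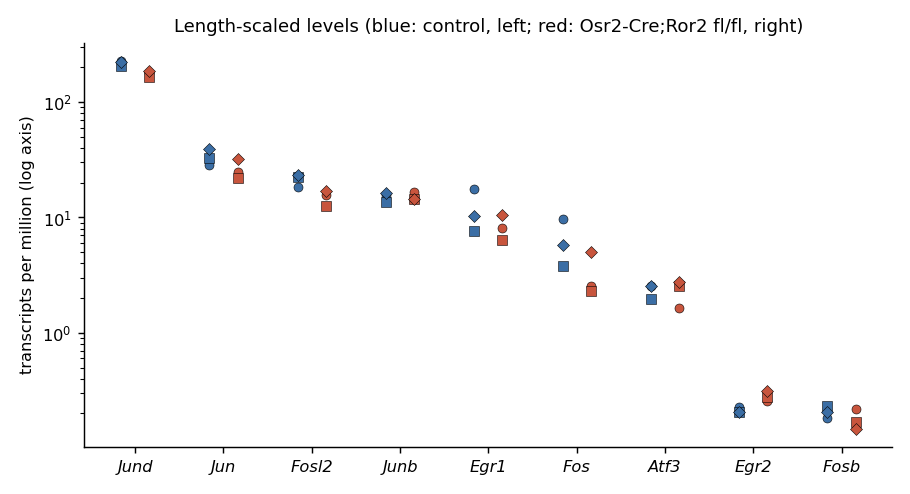
Level of each member in TPM (log y axis) in control (blue, left) and *Osr2-Cre;Ror2 fl/fl* libraries (red, right), ordered by the control mean, with circles, squares and diamonds for libraries 1, 2 and 3. *Jund* (218 in control) is the highest, and *Egr2* and *Fosb* lie below all other members.

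Across the 6 libraries, log2 levels of *Fos* and *Egr1* had a Pearson's r of 0.9 (exact permutation p = 0.012) and a Spearman's rho of 0.94 (exact permutation p = 0.017). Adjusted over the 36 pairs of members, the p for r was 0.25, a value shared with *Fosb* and *Atf3*, which had an r of −0.93 (exact permutation p = 0.014), and no pair had a lower one. Without control library 1 and mutant library 2, which lay farthest from the median of *Fos*, r was 0.46. Leaving out the extremes of *Fos* narrows its range, so this drop cannot decide whether the relation rests on those libraries. The 5 other genes whose log2 levels were most like *Fos* over the 6 libraries, among 15042 candidates, were *Gm3788* (r = 0.985), *Krt6a* (r = 0.985), *Gm9824* (r = 0.983), *Sdf2l1* (r = 0.982) and *Rph3al* (r = 0.979). *Krt6a*, a keratin of stressed epithelium, was at 42.7 CPM in control library 1 and 20.5 to 31.9 CPM in the others. The mean of the standardized members was most like *Nono*, *Ints12*, *Nras*, *Tax1bp1* and *Chmp4c* (r = 0.995, 0.994, 0.992, 0.99 and 0.989), with mutant library 2 the lowest at −0.6 and control library 1 the highest at 0.31. These are the highest of many r values over 6 points and are given as a description.

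Among other immediate early genes, 7 of 50 tested genes were higher and 1 lower in the mutant, beside 10.4% higher and 9.84% lower over all genes. At the unadjusted limit, 20 of the 50 passed, near the 38.3% of all genes, and their median log2 fold change was 0.12. *Per1*, an inducible clock gene, was higher, from 24.3 ± 1.5 CPM in control to 34.9 ± 0.895 CPM in mutant libraries (SD, n = 3, log2 fold change 0.52, adjusted p = 0.0088). *Sik1*, a kinase induced by cAMP, was also higher, from 23 ± 0.434 to 33.1 ± 2.29 CPM (log2 fold change 0.52, adjusted p = 0.0096). *Gem*, a small GTPase that restrains calcium channels, was lower, from 6.47 ± 1.16 to 3.31 ± 0.668 CPM (log2 fold change −0.96, adjusted p = 0.017). Each of these 3 genes had groups that did not overlap. The balance of higher and lower calls depended on the setting, with 1 and 1 under the GC offset, 7 and 4 by DESeq2, 10 and 7 by limma voom, 2 and 1 with the replicate block, and 7 and 5 without mutant library 3. It was 1 and 0 without control library 2, 0 and 0 without control library 3, 5 and 3 without control library 1, and 2 and 0 without mutant library 1.

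Among 34 MAP kinases and factors that switch immediate early genes on, 3 were higher and 6 lower in the mutant. Over all genes, 10.4% were higher and 9.84% lower, and the median log2 fold change of this list was −0.07. *Map2k2*, an ERK kinase, was higher (79.7 ± 4.83 CPM in control, 108 ± 0.652 CPM in mutant, log2 fold change 0.44, adjusted p = 0.015). *Mapk10*, which encodes the JNK3 kinase, was lower (5.47 ± 0.228 and 2.41 ± 0.821 CPM, log2 fold change −1.19, adjusted p = 0.015), and so was *Creb1*, which encodes CREB (66.6 ± 6.86 and 39.2 ± 8.32 CPM, log2 fold change −0.76, adjusted p = 0.015). Of 20 negative feedback genes, 2 were higher and 2 lower, beside the same shares of all genes, with a median of −0.03. *Spred1* and *Dusp6*, which restrain Ras and ERK, were lower (log2 fold changes −0.61 and −0.43, adjusted p = 0.019 and 0.033), and *Socs3*, which restrains cytokine receptors, was higher (0.82, adjusted p = 0.036). With the GC offset, 2 kinases and factors were called higher and 3 lower, and without control library 2 or control library 3 there were 0 in either direction in both lists. For the feedback genes, 0 were called higher, so *Socs3* was not called, under either GC offset, with the replicate block, on the normalized table with a pseudocount of 1, without control library 1 or without mutant library 1, and 2 were still called lower in each of these except the replicate block and without control library 1, which gave 1.

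**Figure D5:**
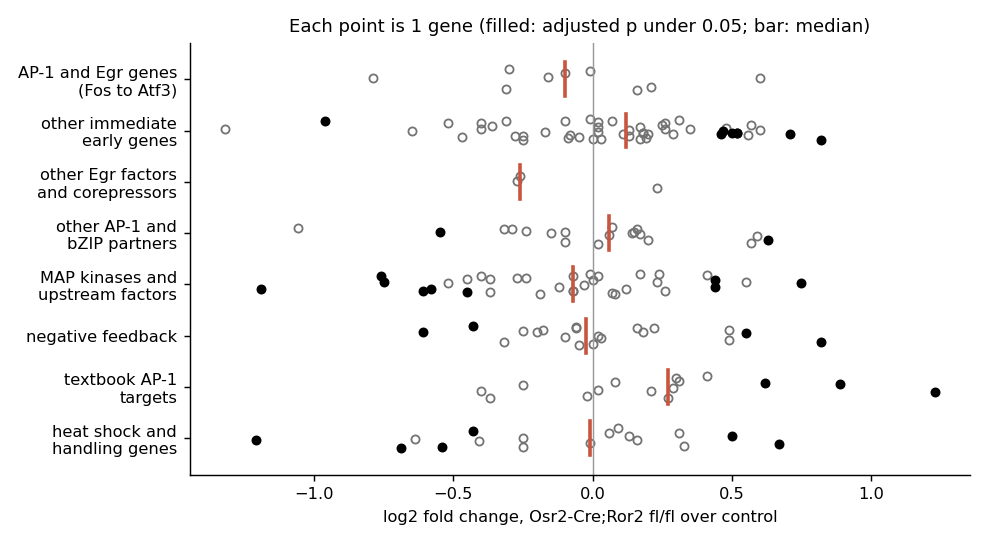
Log2 fold change, *Osr2-Cre;Ror2 fl/fl* over control (x axis), of each tested gene in the AP-1 and Egr members and in 7 other lists, with filled points for adjusted p under 0.05 and a red bar at the median. The members' row holds no filled point, and the median of the AP-1 targets stands at 0.27.

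Partners and targets of these factors were also counted, beside 10.4% of all genes called higher and 9.84% called lower. Of 19 other AP-1 and bZIP partners, 1 was higher and 1 lower, with a median of 0.06. These were *Atf4*, the main factor of the integrated stress response (89.7 ± 2 CPM in control, 139 ± 20.1 CPM in mutant, log2 fold change 0.63, adjusted p = 0.013), and *Maf* (776 ± 53.3 and 530 ± 68 CPM, log2 fold change −0.55, adjusted p = 0.028). Without control library 2 or control library 3, 0 partners were called in either direction, and 0 were called lower, *Maf* included, with the replicate block or without mutant library 1. Of the 3 other Egr factors and corepressors tested, 0 were called by edgeR's quasi-likelihood test at either the adjusted or the unadjusted limit or by DESeq2 or limma voom after adjustment, with a median of −0.26. Of 15 textbook AP-1 targets, 3 were higher and none lower by edgeR's quasi-likelihood test, with a median of 0.27, while DESeq2 and limma voom each called 1 lower. *Hmox1*, the inducible heme oxygenase, had the lowest p of the list (12.4 ± 1.22 and 23.1 ± 0.874 CPM, log2 fold change 0.89, adjusted p = 0.0021). *Plaur*, the urokinase receptor, and *Spp1*, which encodes osteopontin, had log2 fold changes of 0.62 and 1.23 (adjusted p = 0.019 and 0.039). Without control library 2, control library 3 or mutant library 1, 1 target was called higher in place of 3. AP-1 activity was not measured, and the part of AP-1 or of other factors in these target values was not tested.

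Signs of tissue handling were looked at because they move immediate early genes. Of 17 heat shock and handling genes, 2 were higher and 4 lower in the mutant, beside 20.2% called in either direction over all genes, and 10 passed the unadjusted limit, beside 38.3%. The median was −0.01. *Hsp90aa1*, the inducible cytosolic HSP90, was lower (103 ± 3.11 and 64 ± 7.71 CPM, log2 fold change −0.69, adjusted p = 0.0055), as was *Dnaja1* (−0.43, adjusted p = 0.017), whereas *Hspe1*, the mitochondrial HSP10, was higher (0.67, adjusted p = 0.013). Lower calls went from 4 to 1 under either GC offset and without control library 2, control library 3 or mutant library 1, so at most 1 of the named lower genes was called there, and to 7 without mutant library 3. Higher calls went to 0 without control library 2 or control library 3, to 1 with the replicate block or without mutant library 1, and to 4 by limma voom or without mutant library 2. Among nuclear-retained RNAs, mutant library 2 stood apart, with *Neat1* at 132 CPM beside 30.4 to 38.4 CPM in the other libraries. That library also had the lowest level of *Fos*, *Fosl2*, *Jun*, *Jund* and *Egr1*, and without it their log2 fold changes were −0.59, −0.19, −0.03, −0.05 and −0.14. The part of handling in these values was not tested.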

How the data were processed

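The 3 control (*Ror2 fl/fl*) libraries and the 3 mutant (*Osr2-Cre;Ror2 fl/fl*) libraries were grouped by the genotype in their labels. The members and lists were chosen with earlier results of these data known. The authors deposited estimated counts per gene, of which 48.8% were whole (to within 1e-06). They were rounded to whole numbers, which the design had not foreseen. The authors also deposited a normalized signal, in which 1 was added to each estimated count and the sum multiplied by a factor per library (to within 0.00082%), used only as an alternative. Methods name TopHat, single-end reads and counts over exons, while the submitters' processing notes list STAR 2.6.1d and Partek, with build mm10. Strand and annotation are not given in the sources used here. The count table's 6 columns of other samples were not used.

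Analyses used R 4.3.3, edgeR 4.0.16, limma 3.58.1 and DESeq2 1.42.0. The test was edgeR's quasi-likelihood test on genes kept by filterByExpr, after TMM scaling, with Benjamini-Hochberg adjustment over 19330 genes and a threshold of 0.05. Intervals (95%) use the standard error implied by the F statistic. The test was checked on simulated data. Exact two-sided permutation tests were run on log2 CPM (prior count 2). Counts per library of 56134770 to 62628940 set the precision, and the biological coefficient of variation was 18.7%. Replicate libraries were not copies of each other (chi-square per gene of at least 56.2). Levels per length use exon lengths of GENCODE M21. No member shared a stretch of 75 bases with another gene's transcripts read on the same strand, and overlaps with antisense genes were counted apart. Genes named are all members, *Ror2*, up to 3 genes with the lowest p past the threshold in each list, and the 5 most like *Fos* or the members' mean (at least 1 CPM). Overlapping genes, *Slc4a1*, *Neat1*, *Myog* and the enamel genes were named after their values were seen. Alternatives were other tests, scalings, filters, the normalized table, GC content and length offsets, the replicate block and leaving out each library. Sums with antisense genes were added after seeing the data. Some items are not reported here.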

Additional observations from a re-analysis of the deposited data

How the results depend on the processing

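No member was called under any alternative except *Jund* with the GC content and length offset, which left 1 member called lower in the mutant. The number of genes called in all was 3906, and was 6341 by limma voom, 2013 with the replicate block, and 872 to 5001 when single libraries were left out, with 910 without control library 2, 872 without control library 3, 2680 without control library 1, 2404 without mutant library 1 and 5001 without mutant library 3. *Ror2* was at −0.43 with the replicate block (adjusted p = 0.058), and at −0.46 to −0.41 when single libraries were left out, no longer past the threshold without control library 2 (0.066) or control library 3 (0.075). The sample index in the labels was used as the block. Deviations from the group mean had correlations of −0.1, −0.0795 and −0.00375 between same-indexed libraries, and of −0.0374 to 0.1 between the others. With 3 libraries in each group, this check cannot decide whether the index pairs them. The same indices recur in both groups, and the labels do not say whether the groups were prepared or sequenced together. Any such difference between the groups could not be told apart from genotype. *Fosb* turned to 0.05 by limma voom and 0 on the normalized table with a pseudocount of 1, and was at −0.22 to 0.13 when single libraries were left out. *Egr1* turned to 0.02 by limma voom and was at −0.53 to 0.1 when single libraries were left out. *Junb* turned to −0.02 with the GC content offset and −0.09 with GC content and length. The cause of these changes was not tested. Sums with genes sharing stretches of 75 bases on the same strand were not run, because no member shares one, and members that share exonic bases with an antisense gene are described with their values. Low counts limit *Fosb* and *Egr2*, and the spread between libraries limits *Fos* and *Egr1*.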
